A study of Mus musculus with 12 samples.

Results

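Dermal papilla cells were compared with dermal fibroblasts across all genes, using 4 of the 12 RNA sequencing libraries of the series, 2 of each population. All cells were sorted by fluorescence at postnatal day 5 from dorsal skin of the outbred mouse strain CD1, and the labels name no mutation, transgene or treatment for any of them. The dermal sheath, the melanocytes, the hair matrix and the outer root sheath, 2 libraries each, gave reference levels, and the sheath libraries also entered the fit. Which markers or reporters the sorts used, and whether animals were pooled, is not given in the sources used here. Whether replicate libraries stem from different animals is not stated either, so the p-values rest on library-to-library spread that could be technical. A gene was tested if 2 or more of the 4 libraries reached 1 FPKM, which held for 12873 of the 19150 genes in the table, and 6277 were not tested.

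The dermal papilla is the cluster of mesenchymal cells at the base of the hair follicle. It sends WNT, BMP, FGF and other signals to the epithelial matrix and to pigment cells around it, and these signals help to set hair growth, hair type and coat colour. Dermal fibroblasts outside the follicle build the collagen and elastic fibres of the skin. Both descend from embryonic dermal fibroblasts, so the comparison asks which genes separate a specialised signalling mesenchyme from its matrix-building relative.

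Levels are FPKM, fragments scaled to transcript length and to the number of mapped reads, as deposited by the authors. They are given for papilla replicates 1 and 2 and then fibroblast replicates 1 and 2, or as mean ± SD (n = 2). A log2 difference is papilla minus fibroblasts on log2(FPKM + 1), given ± its standard error. The fold is 2 to that power, which understates the change of genes near 0. A gene was called higher in a population when the limma p-value, adjusted by the Benjamini-Hochberg method over all tested genes, was under 0.05 and the absolute log2 difference was at least 1. In such sorted bulk samples, fewer cells of a type and less RNA per cell cannot be told apart. The 4 libraries summed to between 399675 and 479121 FPKM. Replicates differed by a median SD of 0.254 on the log2 scale in papilla and 0.252 in fibroblasts. Read counts are not given, so the depth behind a value is unknown.

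The defining markers followed the labels. The gene lists that hold them were chosen with earlier results of these data known, so this is not an independent check. Corin, a serine protease of the papilla that is known to limit the action of agouti on coat colour, was at 344 and 395 FPKM in papilla and 0.673 and 1.39 FPKM in fibroblasts. Sfrp1, a secreted WNT antagonist, was at 839 and 857 FPKM in papilla and 3.93 and 5.03 FPKM in fibroblasts. Scube1, a secreted protein with EGF domains, was at 417 and 379 FPKM in papilla and 1.72 and 2.05 FPKM in fibroblasts. For these 3 markers both papilla libraries were high and both fibroblast libraries were near the bottom of the scale. Col1a1, the alpha 1 chain of type I collagen, was at 372 and 225 FPKM in papilla and 6571 and 3744 FPKM in fibroblasts. Both fibroblast libraries thus stood far above both papilla libraries. The dermal sheath held a similar level to fibroblasts, given below with the collagen chains, so Col1a1 does not set fibroblasts apart from sheath.

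The fibroblast libraries also carried transcripts of pigment cells. All 13 melanocyte markers examined were higher in fibroblasts than in papilla, with a median log2 difference of -5.67. Their summed level was 8514 and 8019 FPKM in the fibroblast libraries, 117 and 111 FPKM in papilla, 46.9 and 37.5 FPKM in dermal sheath, and 19005 and 16156 FPKM in the sorted melanocytes. Over these markers the median ratio to the mean melanocyte level was 46.5% and 36.9% in the fibroblast libraries, against 0.608% and 0.712% in the papilla libraries. Single markers ran from 15.9% to 77.1% in fibroblast replicate 1 and from 22.2% to 65.8% in fibroblast replicate 2. The melanocyte share is therefore only roughly known. Dct, which encodes dopachrome tautomerase of the melanin pathway, was at 1877 and 1670.5 FPKM in fibroblasts and 19.3 and 22.7 FPKM in papilla. Mlana, a protein of the pigment granule, was at 3369 and 3140.1 FPKM in fibroblasts and 47.1 and 36.5 FPKM in papilla. A gene whose mean in the melanocyte libraries was at least its mean in the fibroblast libraries is called shared with melanocytes here. For any gene, the melanocyte part is the melanocyte mean times 41.7%, the mean of the 2 median ratios, as a percent of the fibroblast mean. It assumes that the markers enter the fibroblast libraries only with melanocyte RNA, and that assumption was not tested.

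**Figure D1:**
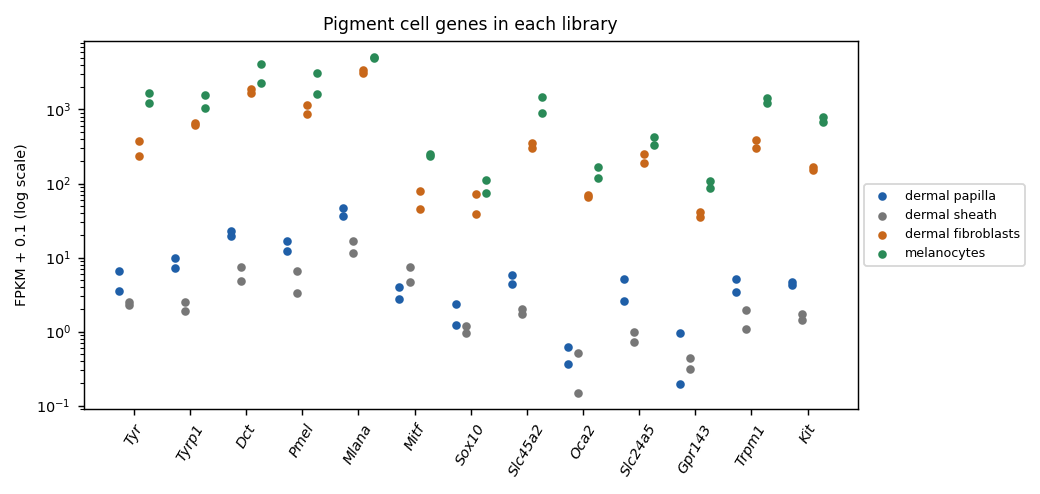
Level of the 13 melanocyte markers in each library of 4 populations, on a log axis of FPKM + 0.1. Points are single libraries. Both fibroblast libraries lie between the melanocyte libraries and the papilla and sheath libraries for every marker.

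Of the 12873 tested genes, 1070 were higher in papilla (8.31%), 956 were higher in fibroblasts (7.43%) and 10847 were not called. The 8.31% and 7.43% are the background for the counts of every gene list below, and no list count was tested against them. Of the 956, 414 were shared with melanocytes and 542 (4.21% of all tested genes) were lower in melanocytes than in fibroblasts. The share of genes that were shared with melanocytes in this sense was 43.3% among the fibroblast-higher genes, 32.5% among the papilla-higher genes and 51.6% among all tested genes. The melanocyte part was under 10% of the fibroblast level for 370 of the 956 genes, from 10% to 50% for 209 and at least 50% for 377. The papilla and fibroblast libraries did not overlap for 6813 tested genes (52.9%), called or not, and the median log2 difference of all tested genes was 0.06. Differences reached at least 8-fold for 154 papilla-higher and 139 fibroblast-higher genes, and 32-fold for 35 and 18. In a subtraction of the melanocyte share, values that fell under 0 were set to 0. When the melanocyte share was subtracted from each dermal library and the rest was scaled back up, 1224 genes were higher in papilla and 777 in fibroblasts, and the median of all genes moved to 0.32. Subtraction without the rescaling moved that median to 0.95 and called 3087 and 428 genes, so the rescaled values are the ones given below as those after subtraction. The rescaling raises the rest of a fibroblast library far more than that of a papilla library. A gene lower in melanocytes than in fibroblasts therefore moves towards fibroblasts by construction, as Col6a1 did from -2.22 to -2.99. For such genes, this step by itself favours fibroblast calls and disfavours papilla calls after subtraction. Conversely, melanocyte RNA in a fibroblast library would lower the FPKM of such genes there before subtraction, towards papilla. Whether the calls before or after subtraction lie closer to the fibroblasts' own levels was not tested, here or for the lists below. Of the 1070 papilla-higher genes 633 were called again and none was called the other way. Of the 956 fibroblast-higher genes 556 were called again, 206 were not called, 63 were called higher in papilla and 131 fell under the filter. Of the 13 melanocyte markers themselves 7 were still tested, with a median log2 difference of -3.57, and 4 of these stayed higher in fibroblasts.

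**Figure D2:**
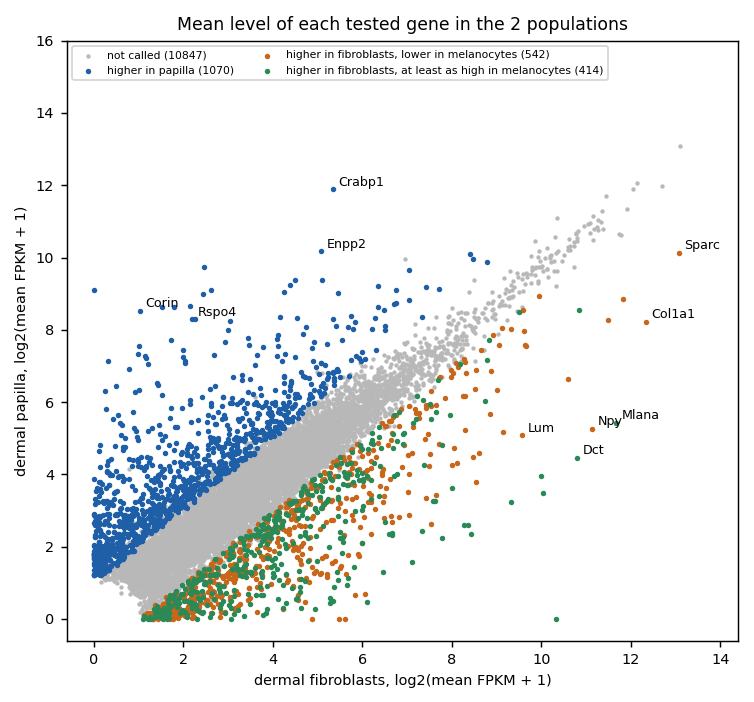
Mean level of each of the 12873 tested genes in fibroblasts (horizontal) and papilla (vertical), as log2(mean FPKM + 1). Colours mark the 1070 genes higher in papilla, the 542 higher in fibroblasts and lower in melanocytes, the 414 higher in fibroblasts and shared with melanocytes, and the 10847 not called.

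Secreted proteins and membrane-bound enzymes led the papilla-higher genes. Corin (chromosome 5, 72300025 to 72504473 in GENCODE M21 on mm10) led, with genes listed at 0 in both fibroblast libraries set aside, at a log2 difference of 7.53 ± 0.32 (185-fold, adjusted p = 1.35e-05). Sfrp1 (chromosome 8, 23411502 to 23449632) followed at 7.28 ± 0.23 (156-fold, adjusted p = 8.34e-06) and Scube1 (chromosome 15, 83604999 to 83725021) at 7.11 ± 0.25 (139-fold, adjusted p = 1.34e-05). Alpl encodes the alkaline phosphatase long used to stain the papilla, and it was at 469 and 320.5 FPKM against 1.39 and 3.55 FPKM (118-fold, adjusted p = 2.25e-05). F5, coagulation factor V, was at 142 and 134 FPKM against 0.255 and 0.239 FPKM (112-fold). Prss12, which encodes the protease neurotrypsin, was at 439 and 366 FPKM against 4.12 and 2.70 FPKM (92.4-fold). The dermal sheath lay well below the papilla for all of these, at 84.2 FPKM for Corin, 48.0 FPKM for F5, 40.3 FPKM for Sfrp1, 19.1 FPKM for Alpl, 15.8 FPKM for Prss12 and 7.598 FPKM for Scube1.

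Crabp1, a cytoplasmic retinoic acid binding protein, had the highest level of any papilla-higher gene, at 4805 and 2776 FPKM in papilla and 39.4 and 39.4 FPKM in fibroblasts (90.5-fold, adjusted p = 1.35e-05). Papilla replicate 1 was well above replicate 2, and both stood far above the fibroblast libraries, which hardly differed. Enpp2 encodes autotaxin, the enzyme that makes lysophosphatidic acid, and it was at 1124 and 1183 FPKM in papilla and 29.1 and 36.1 FPKM in fibroblasts (34.5-fold, adjusted p = 2.00e-05). Its melanocyte level was 62.5 FPKM, so the gene is shared with melanocytes and its melanocyte part comes to 79.9% of the fibroblast level. Apoe, the lipid carrier apolipoprotein E, was at 979 and 644 FPKM against 175 and 88.4 FPKM (6.35-fold, adjusted p = 0.00393, and 0.0523 after subtraction). Cyr61, a matrix-associated growth regulator, was abundant in both populations at 1187 and 1022 FPKM and 369 and 309 FPKM (3.25-fold, adjusted p = 0.00117). Serpinf1, pigment epithelium-derived factor, was at 935 ± 264 FPKM in papilla, 437 ± 14.1 FPKM in fibroblasts and 829 FPKM in sheath. Its call (adjusted p = 0.0200) was lost without papilla replicate 1 (adjusted p = 0.1005), without either fibroblast library (adjusted p = 0.0895 and 0.115) and after subtraction (adjusted p = 0.382).

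Of 31 genes described as papilla markers, 28 were higher in papilla, 2 were higher in fibroblasts and 1 was not called, with a median log2 difference of 4.72. Against the background of 8.31% this list follows its name, which is part of how its members came to be listed. Lepr, the leptin receptor, Ptprz1, a receptor phosphatase, and Notum, an enzyme that inactivates WNT proteins, had log2 differences of 4.72, 5.02 and 3.70. The weakest of the called markers were Ncam1, a neural cell adhesion molecule, at 78.2 ± 9.56 FPKM against 31.5 ± 2.08 FPKM (log2 1.28 ± 0.25, adjusted p = 0.00938) and Lef1, the nuclear partner of beta-catenin, described with the WNT genes. The call of Ncam1 was lost without papilla replicate 2 (adjusted p = 0.0655), without fibroblast replicate 1 (adjusted p = 0.0604) and after subtraction (adjusted p = 0.0712). Prom1, the stem cell surface antigen CD133, was at 3.11 and 2.88 FPKM in papilla and 1.34 and 2.21 FPKM in fibroblasts and was not called (log2 0.54 ± 0.29, 95% interval -0.13 to 1.22, adjusted p = 0.280). Sema3a, a secreted repulsive guidance cue, went the other way, at 0.770 and 1.87 FPKM in papilla and 11.9 and 25.0 FPKM in fibroblasts (8.13-fold higher in fibroblasts, adjusted p = 0.00456). Slc6a2, the noradrenaline transporter, was the other marker higher in fibroblasts, at 1.97 ± 0.793 FPKM against 0.239 ± 0.0843 FPKM (adjusted p = 0.0149, and 0.0700 and 0.0693 without papilla replicate 2 and fibroblast replicate 2).

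Among 27 tested transcription factors described for the papilla, 14 were higher in papilla and 3 in fibroblasts, with a median log2 difference of 1.11. After subtraction 11 and 1 were called. Alx4, a homeobox factor of craniofacial and skin mesenchyme, was at 211 and 159 FPKM in papilla and 1.02 and 0.9996 FPKM in fibroblasts (91.6-fold, adjusted p = 1.35e-05). Sox18, a SOX factor in which mutations affect hair and vessels, was at 257 and 88.2 FPKM in papilla and 4.67 and 1.31 FPKM in fibroblasts (41.9-fold, adjusted p = 0.000659). Papilla replicate 1 was the higher library for both of these genes. Sox2, which marks the papilla of some hair types, was at 11.2 and 7.97 FPKM in papilla and 0.119 and 0.0374 FPKM in fibroblasts (9.71-fold, adjusted p = 0.000193). Tbx18 was at 5.07 ± 0.574 FPKM in papilla and 0.686 ± 0.0148 FPKM in fibroblasts, and it was highest in sheath at 26.1 FPKM. On the fibroblast side, Twist2, a factor of early dermis, was at 143 and 112 FPKM against 27.2 and 17.5 FPKM (5.60-fold higher in fibroblasts, adjusted p = 0.000738), and it was listed at 0 in melanocytes. Tfap2a was also higher in fibroblasts (4.55-fold, adjusted p = 0.00116) but turned to a log2 difference of 3.68 after subtraction. The part subtracted for its melanocyte level of 214 FPKM exceeded the 63.4 FPKM of fibroblasts. The 3.68 thus sets papilla against a fibroblast level put at 0.

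R-spondins are secreted proteins that amplify WNT signals through LGR receptors, and all 4 were higher in papilla. Rspo4 was at 325 and 301 FPKM in papilla and 2.87 and 4.33 FPKM in fibroblasts (69.1-fold, adjusted p = 1.53e-05). Rspo3 was at 435 and 614 FPKM against 13.3 and 22.7 FPKM (28.2-fold, adjusted p = 0.000172), and Rspo2 at 70.8 and 85.7 FPKM against 0.106 and 0.255 FPKM (67.0-fold, adjusted p = 1.91e-05). Rspo1 was already present in fibroblasts, at 81.1 and 64.6 FPKM, and reached 317 and 203 FPKM in papilla (3.47-fold, adjusted p = 0.00394, and 0.108 after subtraction). The sheath held 51.9 FPKM of Rspo3 and 49.2 FPKM of Rspo1 but 4.87 FPKM of Rspo4 and 4.60 FPKM of Rspo2. Their receptors divided. Lgr4 was higher in papilla, at 37.1 ± 4.15 FPKM against 7.13 ± 1.63 FPKM (4.72-fold, adjusted p = 0.00145), and Lgr5 was higher in fibroblasts, at 22.0 ± 3.57 FPKM against 2.99 ± 1.07 FPKM (5.84-fold, adjusted p = 0.00105). Rnf43, a ligase that removes WNT receptors from the surface, had a log2 difference of -0.58 and was not called. In all, 5 of 8 tested members of this group were higher in papilla and 1 in fibroblasts.

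Secreted and membrane inhibitors of WNT split between the populations, 7 of 15 tested genes higher in papilla and 3 in fibroblasts, the same counts as after subtraction. Their median of 0.35 turned to -0.15 there, while that of all tested genes moved from 0.06 to 0.32. Beside Sfrp1, the papilla held Wif1, which binds WNT proteins, at 659.6 and 659 FPKM against 32.4 and 33.7 FPKM in fibroblasts (19.4-fold, adjusted p = 1.91e-05). Sostdc1, an antagonist of both BMP and WNT, was at 460.4 and 641 FPKM against 5.35 and 4.85 FPKM (89.3-fold, adjusted p = 2.25e-05). Draxin, a secreted inhibitor first known as an axon repellent, was at 34.5 and 31.4 FPKM against 0.472 and 0.555 FPKM (22.4-fold). Frzb, a relative of Sfrp1, was at 21.2 ± 3.01 FPKM against 1.08 ± 0.686 FPKM. On the fibroblast side, Dkk2, which blocks the LRP co-receptors, was at 32.7 and 49.0 FPKM in fibroblasts and 1.84 and 2.18 FPKM in papilla (13.7-fold higher in fibroblasts, adjusted p = 0.000126). Sfrp4, of the same family as Sfrp1 and Frzb, was at 29.0 and 29.0 FPKM against 1.14 and 1.65 FPKM (12.6-fold, adjusted p = 0.000198), and Dkk3 was at 108 ± 15.0 FPKM against 15.1 ± 0.493 FPKM with a melanocyte level of 156 FPKM.

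WNT ligands and receptors differed less. Of 25 tested, 4 were higher in papilla and 5 in fibroblasts, 2 of these 5 shared with melanocytes, and the median log2 difference was 0.33. After subtraction that median was -0.14, beside 0.32 for all tested genes, with 3 called in each direction. Wnt5a, a ligand that acts mostly without beta-catenin, was at 88.7 and 121 FPKM in papilla and 18.8 and 30.3 FPKM in fibroblasts (4.19-fold, adjusted p = 0.00541, and 0.0722 after subtraction). Fzd10, a WNT receptor, was at 21.3 and 14.45 FPKM against 1.74 and 2.64 FPKM (5.88-fold, adjusted p = 0.00124). Ror1, a receptor for Wnt5a, was the unshared receptor with the largest difference towards fibroblasts, at 5.03 ± 0.675 FPKM against 0.696 ± 0.249 FPKM (3.56-fold, adjusted p = 0.00293). Among 17 partners and targets of beta-catenin, 3 were higher in each population, and all 3 of the fibroblast-higher ones were shared with melanocytes. After subtraction 2 were higher in papilla and none in fibroblasts. Lef1 was at 101 and 104 FPKM in papilla and 38.6 and 34.9 FPKM in fibroblasts (2.74-fold, adjusted p = 0.00348), with 97.8 FPKM in melanocytes and 7.83 FPKM in sheath. Axin2, a direct target of the pathway, was at 43.1 ± 0.277 FPKM in papilla and 56.0 ± 8.63 FPKM in fibroblasts and was not called (log2 -0.36 ± 0.26, 95% interval -0.96 to 0.23, adjusted p = 0.434).

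BMP ligands, which act on the matrix and on the papilla itself, were higher in papilla for 6 of 7 tested genes and in fibroblasts for none, and the median log2 difference was 2.92. Gdf10 was at 177 and 123 FPKM in papilla and 3.36 and 2.65 FPKM in fibroblasts (37.2-fold, adjusted p = 3.18e-05). Bmp4 was at 370.1 and 258 FPKM against 47.2 and 31.4 FPKM (7.85-fold, adjusted p = 0.000301) and at 19.5 FPKM in sheath. Bmp6 was at 125 and 73.8 FPKM against 12.4 and 7.94 FPKM (8.86-fold, adjusted p = 0.002005), and Bmp7 and Bmp3 had log2 differences of 2.92 and 2.67. Bmp1, a protease despite its name, was not called (log2 -0.43). Antagonists were again split, 4 of 14 higher in each population, and 3 in papilla and 5 in fibroblasts after subtraction. The papilla held Fst, follistatin, at 81.7 ± 3.11 FPKM against 5.00 ± 1.44 FPKM (13.98-fold, adjusted p = 0.000126), and Nog, noggin, at 20.2 ± 4.52 FPKM against 0.848 ± 0.328 FPKM (11.5-fold, adjusted p = 0.000176). The fibroblasts held Grem1, gremlin, at 71.1 and 106 FPKM against 7.33 and 4.64 FPKM (12.8-fold, adjusted p = 0.000316), and Htra1, a secreted protease known to bind BMP and TGF-beta proteins, at 361 and 347 FPKM against 24.0 and 18.3 FPKM (16.1-fold, adjusted p = 6.70e-05). In melanocytes they were at 0.175 FPKM and 0.593 FPKM.

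Of 14 receptors, SMAD proteins and target genes of BMP, 4 were higher in papilla and none in fibroblasts (5 and 0 by unadjusted limma p). All 4 are described as targets or feedback genes. Of the 14 genes, 12 were shared with melanocytes, beside 51.6% of all tested genes. Their median log2 difference was 0.43, and 1.46 after subtraction, when that of all genes was 0.32. After subtraction 3 were called higher in papilla and 0 in fibroblasts. Id3, a target that blocks differentiation factors, was at 714 and 449 FPKM in papilla and 206 and 134 FPKM in fibroblasts (3.39-fold, adjusted p = 0.00768). Id1 was at 125 and 96.4 FPKM against 48.3 and 31.0 FPKM (2.79-fold, adjusted p = 0.00855), but its call was lost without papilla replicate 1 (adjusted p = 0.0662), without fibroblast replicate 2 (adjusted p = 0.0600) and after subtraction (adjusted p = 0.196). Msx2, a homeobox target, was at 41.5 ± 1.09 FPKM against 17.1 ± 2.46 FPKM, close to the threshold (adjusted p = 0.0485, and 0.186, 0.165, 0.208 and 0.114 when papilla replicates 1 and 2 and fibroblast replicates 1 and 2 were left out in turn). It was also lost after subtraction (adjusted p = 0.310). The receptors Bmpr1a and Acvr1 had log2 differences of 0.25 and 0.53 and were not called.

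FGF genes were higher in papilla for 9 of 19 tested members and in fibroblasts for 3, and the median log2 difference was 1.46. Fgf7, keratinocyte growth factor, was at 348 and 666 FPKM in papilla and 3.59 and 5.30 FPKM in fibroblasts (89.7-fold, adjusted p = 0.000118). Fgf10, its close relative that acts on the same epithelial receptor, was at 88.8 and 151 FPKM against 0.656 and 0.789 FPKM (67.8-fold, adjusted p = 5.56e-05). Papilla replicate 2 was the higher library for both ligands. The sheath was at 27.9 FPKM for Fgf7 and 13.4 FPKM for Fgf10. Receptors 1 to 3 were higher in papilla, with Fgfr3 at 42.7 ± 2.52 FPKM against 3.50 ± 0.116 FPKM (9.70-fold, adjusted p = 0.000130), Fgfr1 at 181 ± 23.0 FPKM against 28.1 ± 2.23 FPKM and Fgfr2 at 209 ± 4.25 FPKM against 46.0 ± 1.66 FPKM. Fgfr4 was the reverse, at 55.5 and 42.1 FPKM in fibroblasts and 1.65 and 1.06 FPKM in papilla (21.1-fold higher in fibroblasts, adjusted p = 7.32e-05), and at 0.208 FPKM in sheath and 0.133 FPKM in melanocytes. The feedback inhibitors Spry1 and Spry4 were higher in papilla, with log2 differences of 2.73 and 2.68. Etv5, a factor induced by FGF signals, was higher in fibroblasts (4.18-fold, adjusted p = 0.000982) but at 409 FPKM in melanocytes, and its log2 difference turned to 4.70 after subtraction. The list held 9 papilla-higher genes and 1 fibroblast-higher gene then.

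The promoter windows of 3 papilla-higher signals to neighbouring cells, Fgf7, Fgf10 and the agouti gene a described below, are printed because each holds a match to CTTTGNT, read as ANCAAAG on the other strand. This pattern is a loose form of the LEF/TCF motif, in which N stands for any letter. All 3 matches read AGCAAAG, with G at the open letter. Capitals mark the match. Each is the RefSeq window on the plus strand of GRCm38.p6 from 250 bases before to 50 after the gene's start in RefSeq. GENCODE M21 gives Fgf7 the same start, but its first base of Fgf10 is 118669791 and that of a is 154791402, so these 2 windows lie inside the longer GENCODE genes. They lie at chr2:126034408-126034707, chr13:118714449-118714748 and chr2:155013320-155013619.
Fgf7: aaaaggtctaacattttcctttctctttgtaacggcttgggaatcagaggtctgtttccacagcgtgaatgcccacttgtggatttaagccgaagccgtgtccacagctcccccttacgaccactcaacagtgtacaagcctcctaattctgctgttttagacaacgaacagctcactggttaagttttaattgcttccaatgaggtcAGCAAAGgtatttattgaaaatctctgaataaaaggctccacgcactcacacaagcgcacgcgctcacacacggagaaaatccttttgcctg
Fgf10: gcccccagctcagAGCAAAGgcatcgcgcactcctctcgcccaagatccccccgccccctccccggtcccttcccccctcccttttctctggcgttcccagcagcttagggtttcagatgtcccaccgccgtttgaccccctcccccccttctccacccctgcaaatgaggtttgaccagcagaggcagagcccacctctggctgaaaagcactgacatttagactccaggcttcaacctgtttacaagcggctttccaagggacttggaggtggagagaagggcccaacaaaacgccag
a: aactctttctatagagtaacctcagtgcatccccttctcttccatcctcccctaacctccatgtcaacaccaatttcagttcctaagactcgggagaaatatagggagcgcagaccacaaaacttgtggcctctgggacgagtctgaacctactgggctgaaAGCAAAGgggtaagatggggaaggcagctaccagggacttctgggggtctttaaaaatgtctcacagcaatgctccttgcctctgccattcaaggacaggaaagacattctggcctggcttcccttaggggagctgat
Such a match is common. It occurred on either strand in 18.4% of the papilla-higher genes with a window in the table (137 of 744), 17.8% of the fibroblast-higher genes (119 of 667), 16.4% of all tested genes (1545 of 9427) and 18.6% of all 32851 windows of this length, so papilla-higher genes stood close to the background. The match describes the letters and does not show that Lef1 or a relative binds there. The 3 genes were chosen for printing after their values were seen.

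Hedgehog targets were higher in papilla, while the ligand was low in both populations. Shh was at 1.67 and 0.734 FPKM in papilla and 1.55 and 1.57 FPKM in fibroblasts (log2 -0.25 ± 0.28, 95% interval -0.89 to 0.38, adjusted p = 0.644) and at 47.9 FPKM in the hair matrix. Ptch1, the hedgehog receptor and a target of its own pathway, was at 365 and 274 FPKM in papilla and 22.8 and 21.6 FPKM in fibroblasts (13.7-fold, adjusted p = 6.12e-05), with 88.0 FPKM in sheath. Hhip, a hedgehog-binding inhibitor and target, was at 154 and 263 FPKM against 1.39 and 3.22 FPKM (63.6-fold, adjusted p = 8.48e-05). The effectors Gli1, at 85.8 and 52.1 FPKM against 8.05 and 4.69 FPKM (9.45-fold, adjusted p = 0.000772), and Gli2, at 49.3 ± 9.78 FPKM against 6.51 ± 2.73 FPKM (6.87-fold), were also higher in papilla, and in sheath they reached 50.9 FPKM and 41.0 FPKM. The co-receptors pointed the other way. Cdon was at 49.5 and 69.0 FPKM in fibroblasts and 2.16 and 2.47 FPKM in papilla (17.98-fold higher in fibroblasts, adjusted p = 6.88e-05), and Gas1 at 56.4 and 47.1 FPKM against 22.2 and 16.6 FPKM (2.60-fold, adjusted p = 0.0117, and 0.0808 and 0.0809 without papilla replicate 2 and fibroblast replicate 1). In all, 5 of 13 tested genes of the pathway were higher in papilla and 2 in fibroblasts, and the third co-receptor, Boc, was not called (log2 -0.20).

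In the Notch pathway, 4 of 15 tested genes were higher in papilla and none in fibroblasts, and 5 and 2 had an unadjusted limma p under 0.05. Over all tested genes the called shares were 8.31% and 7.43%. Hey1 and Hey2, target repressors of the pathway, were at 159 and 155 FPKM and 70.9 and 73.7 FPKM in papilla, and at 9.77 and 13.2 FPKM and 1.25 and 2.48 FPKM in fibroblasts (adjusted p = 6.88e-05 and 0.000114). Both were shared with melanocytes, at 26.9 FPKM and 8.04 FPKM there. Jag1, a ligand, was at 26.5 ± 0.351 FPKM in papilla and 5.84 ± 0.00938 FPKM in fibroblasts (4.02-fold, adjusted p = 0.00135), and the sheath level of 24.5 FPKM was close to that of papilla. Hes1 and Heyl, other targets, had log2 differences of -0.66 and -0.91 and were not called.

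Activin and TGF-beta genes showed no common direction, with 4 of 23 higher in papilla and 6 in fibroblasts and a median log2 difference of 0.17. After subtraction that median was -0.03, beside 0.32 for all tested genes. Inhba, the activin A subunit, was at 692 and 629 FPKM in papilla and 23.6 and 19.2 FPKM in fibroblasts (29.6-fold, adjusted p = 2.05e-05). Inhbb, the activin B subunit, was at 20.2 ± 2.77 FPKM in fibroblasts and 5.76 ± 1.75 FPKM in papilla (adjusted p = 0.0185, and 0.122, 0.102 and 0.0604 without papilla replicate 2, fibroblast replicate 1 and fibroblast replicate 2). The latent TGF-beta binding proteins divided as well. Ltbp1 was at 210.3 and 252 FPKM in papilla and 13.3 and 19.4 FPKM in fibroblasts (13.6-fold, adjusted p = 0.000126), while Ltbp2 was at 30.5 and 21.0 FPKM in fibroblasts and 1.60 and 0.775 FPKM in papilla (12.3-fold higher in fibroblasts, adjusted p = 0.000497). The ligands Tgfb1, Tgfb2 and Tgfb3 had log2 differences of -0.38, 0.17 and 0.09, and none was called.

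Among IGF, PDGF, HGF and EGF genes, 9 of 22 were higher in papilla and 5 in fibroblasts, and 5 of 20 and 4 after subtraction. Insulin-like growth factor binding proteins made up much of the papilla side. Igfbp4 was at 770.3 and 444 FPKM in papilla and 23.6 and 15.8 FPKM in fibroblasts (28.8-fold, adjusted p = 7.32e-05), and it was higher still in sheath at 1133 FPKM. Igfbp3 was at 159 and 121 FPKM against 2.78 and 3.39 FPKM (34.3-fold, adjusted p = 1.92e-05), with 107 FPKM in sheath. Igfbp2 differed from them, at 282 and 241 FPKM in fibroblasts and 35.3 and 16.1 FPKM in papilla (10.5-fold higher in fibroblasts, adjusted p = 0.000973). Igf1r, the receptor of the ligands these proteins bind, had a log2 difference of 1.54 and was called higher in papilla (adjusted p = 0.00431). Met, the HGF receptor, was at 40.1 ± 8.57 FPKM in fibroblasts and 0.851 ± 0.357 FPKM in papilla, but at 127 FPKM in melanocytes.

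Several papilla products act on pigment cells. The gene a encodes agouti, which switches melanocytes from black to yellow pigment, and it was at 177 and 127 FPKM in papilla and 1.42 and 0.965 FPKM in fibroblasts (69.4-fold, adjusted p = 2.34e-05). It was at 1.20 FPKM in sheath and listed at 0 in melanocytes. Edn3, endothelin 3, a growth factor of melanocytes, was at 285 and 249 FPKM in papilla and 20.9 and 30.1 FPKM in fibroblasts (10.2-fold, adjusted p = 0.000278). Ece1, the enzyme that activates endothelins, was at 119 ± 9.23 FPKM against 42.2 ± 6.05 FPKM (2.79-fold, adjusted p = 0.00272, and 0.103 after subtraction). Kitl, the ligand of the melanocyte receptor Kit, was an exception, at 10.9 and 17.3 FPKM in fibroblasts and 1.86 and 2.83 FPKM in papilla (4.45-fold higher in fibroblasts, adjusted p = 0.00441), with 1.69 FPKM in melanocytes. Mc1r, the melanocyte receptor on which agouti acts, was at 137 ± 12.002 FPKM in fibroblasts and 385 FPKM in melanocytes. In this list 6 of 13 tested genes were higher in papilla and 3 in fibroblasts, and 5 of 12 and 1 after subtraction.

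Retinoid genes were called on both sides, 5 of 16 higher in papilla and 4 in fibroblasts with a median log2 difference of 0.02, and 2 of 15 and 3 after subtraction, against 8.31% and 7.43% of all tested genes before it. Beside Crabp1, its relative Crabp2 was at 277 and 227 FPKM in papilla and 4.30 and 9.59 FPKM in fibroblasts (33.6-fold, adjusted p = 7.23e-05). The retinoic acid producing enzymes differed by member. Aldh1a3 was at 33.7 ± 5.18 FPKM in papilla against 7.07 ± 0.182 FPKM (adjusted p = 0.00313, and 0.0644 after subtraction), and Aldh1a1 was at 6.13 ± 3.00 FPKM in fibroblasts against 0.134 ± 0.00477 FPKM (adjusted p = 0.00110). Rbp4, the retinol carrier, was at 115 and 85.7 FPKM in fibroblasts and 7.15 and 3.63 FPKM in papilla (16.4-fold higher in fibroblasts, adjusted p = 0.000528).

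**Figure D3:**
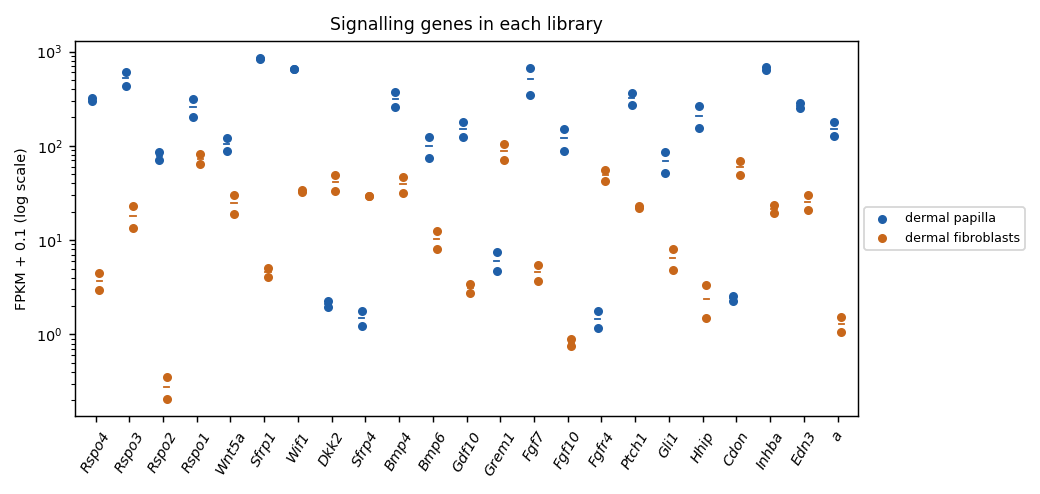
Level of 23 signalling genes in each papilla and fibroblast library, on a log axis of FPKM + 0.1. Points are single libraries and short lines are means of 2. The libraries of the 2 populations do not overlap for any gene shown, and Dkk2, Sfrp4, Grem1, Fgfr4 and Cdon are the ones higher in fibroblasts.

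A pair of neuropeptide genes led the fibroblast-higher genes that were lower in melanocytes. Npy, neuropeptide Y, was at 2392 and 2082 FPKM in fibroblasts and 52.2 and 22.5 FPKM in papilla (63.1-fold higher in fibroblasts, adjusted p = 6.78e-05). Its melanocyte level was 2061 FPKM, which gives a melanocyte part of 38.5%. Tac1, the precursor of substance P, was at 54.6 and 76.3 FPKM against 0.592 and 0.610 FPKM (40.9-fold, adjusted p = 3.18e-05), with 0.119 FPKM in sheath and 0.121 FPKM in melanocytes. Syt4, a synaptotagmin of secretory vesicles, was at 36.5 and 75.2 FPKM against 0.699 and 0.475 FPKM (33.8-fold, adjusted p = 9.26e-05). C1qtnf3, a secreted relative of adiponectin, was at 132 and 234 FPKM against 4.20 and 6.19 FPKM (28.9-fold, adjusted p = 0.000126). Ccbe1, a secreted protein needed for lymphatic vessel growth, was at 18.6 and 32.1 FPKM against 0.350 and 0.434 FPKM (18.3-fold, adjusted p = 0.000107). The melanocyte part was 0.0774% for Tac1, 3.94% for Syt4, 0.144% for C1qtnf3 and 0.0260% for Ccbe1. The 5 fibroblast-higher genes of largest difference among those shared with melanocytes, with genes listed at 0 in both papilla libraries set aside, were Ptgds, which encodes a prostaglandin synthase, and the pigment genes Dct, Mlana, Tyrp1 and Trpm1. Ptgds was at 1155 and 935 FPKM in fibroblasts, 8.48 and 11.7 FPKM in papilla and 4505 FPKM in melanocytes. Mir211, a microRNA gene inside Trpm1, was listed at 0 in both papilla libraries and at 1818 and 726 FPKM in fibroblasts, and FPKM of so short a gene is imprecise. It was at 9773 FPKM in melanocytes.

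Of 29 markers described for fibroblast lineages, 14 were higher in fibroblasts and 3 in papilla, with a median log2 difference of -0.93 against a background of 7.43% called. After subtraction 18 were higher in fibroblasts and 1 in papilla. None of the 29 was shared with melanocytes, and the rescaling moves such genes towards fibroblasts by construction. Lum, the collagen-binding proteoglycan lumican, was at 558 and 960.2 FPKM in fibroblasts and 32.4 and 33.4 FPKM in papilla (21.6-fold higher in fibroblasts, adjusted p = 0.000132). Cd34, a surface sialomucin of fibroblasts and other cells, was at 117 and 146 FPKM against 6.94 and 5.69 FPKM (18.1-fold, adjusted p = 4.20e-05). Dpt, dermatopontin, was at 364 and 416 FPKM against 27.2 and 19.0 FPKM (16.4-fold, adjusted p = 4.20e-05), and Ccl11, the chemokine eotaxin, at 28.4 and 60.1 FPKM against 0.715 and 2.56 FPKM (17.2-fold, adjusted p = 0.000942). Dpp4, known as CD26, was at 17.8 and 36.3 FPKM against 1.89 and 2.33 FPKM (8.52-fold, adjusted p = 0.000890). The melanocyte part of these 5 genes ran from 0.0958% for Lum to 0.806% for Dpp4. Pdgfra, the receptor found on most dermal mesenchyme, was higher in papilla, at 142 and 192 FPKM against 56.0 and 69.5 FPKM (2.62-fold, adjusted p = 0.00794). That call was lost without papilla replicate 2 (adjusted p = 0.0537), without fibroblast replicate 1 (adjusted p = 0.0573) and after subtraction (adjusted p = 0.172). Pdgfrb was at 51.3 ± 9.80 FPKM against 30.5 ± 2.53 FPKM and was not called (log2 0.72 ± 0.27, adjusted p = 0.119). En1, a marker of a lineage of dorsal dermis, was at 41.0 and 18.7 FPKM in papilla and 6.01 and 4.33 FPKM in fibroblasts (adjusted p = 0.00579, and 0.0892 after subtraction).

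Collagen chains were called on both sides. Of 32 tested, 11 were higher in papilla and 12 in fibroblasts, and the median log2 difference was -0.47. After subtraction 6 of 30 and 14 were called. Both chains of type I collagen, the main fibre of the dermis, were on the fibroblast side. Col1a1 (chromosome 11, 94936224 to 94953042) was 17.1-fold higher in fibroblasts (log2 -4.09 ± 0.37, adjusted p = 0.000221), and its partner Col1a2 was at 3679 and 3538 FPKM against 545 and 381 FPKM (7.90-fold, adjusted p = 0.000143). The sheath resembled fibroblasts here, at 4985 ± 1396 FPKM of Col1a1 and 3872 ± 420.2 FPKM of Col1a2. Col5a1, Col6a1, Col6a2 and Col12a1, chains that bind or connect these fibres, had log2 differences of -2.08, -2.22, -2.71 and -2.93. Col6a3, another type VI chain, was at 241 ± 43.2 FPKM in papilla and 304 ± 13.2 FPKM in fibroblasts and was not called. Its log2 difference was -0.34 ± 0.23 (adjusted p = 0.404), and -1.11 after subtraction (adjusted p = 0.0379). On the papilla side were Col23a1, a membrane collagen, at 210.3 and 165 FPKM against 16.2 and 16.2 FPKM (10.9-fold, adjusted p = 7.55e-05), and Col11a1 at 60.5 and 63.8 FPKM against 4.72 and 5.54 FPKM (10.3-fold, adjusted p = 7.47e-05). Col11a1 was higher in sheath than in either, at 379 FPKM. Other fibril-forming chains higher in papilla were Col24a1, at 4.13 ± 0.910 FPKM against 0.808 ± 0.0981 FPKM (adjusted p = 0.00653), and Col5a3, at 28.5 ± 12.3 FPKM against 7.08 ± 2.34 FPKM (adjusted p = 0.0161, and 0.113 without papilla replicate 1, 0.0915 without fibroblast replicate 2 and 0.181 after subtraction). Col3a1 counts on the papilla side, but both fibroblast libraries list it at exactly 0, beside 554 and 535 FPKM in papilla and 1291 FPKM in sheath. Fibroblasts of the dermis are known to make this collagen, and a listed 0 can be a failed estimate, so no fold is given.

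Proteoglycans were called more often in fibroblasts, 9 of 27 higher in fibroblasts and 5 in papilla, and 8 and 3 after subtraction. Dcn, decorin, was at 1236 and 1841 FPKM in fibroblasts and 93.6 and 103 FPKM in papilla (15.2-fold higher in fibroblasts, adjusted p = 7.63e-05). Aspn and Podn, small leucine-rich proteoglycans like decorin, were 17.6-fold and 14.003-fold higher in fibroblasts (adjusted p = 0.000417 and 0.000179). Vcan, versican, a large proteoglycan long used to mark the papilla, was at 501 and 589 FPKM in papilla and 84.0 and 129.7 FPKM in fibroblasts (5.16-fold, adjusted p = 0.00166), with 274 FPKM in sheath. Spock1 and Spock3, secreted testican proteoglycans, were at 26.2 ± 1.22 FPKM and 8.96 ± 2.07 FPKM in papilla and at 0.567 ± 0.306 FPKM and 0.0157 ± 0.00162 FPKM in fibroblasts. Sdc1, a cell-surface syndecan, was at 77.0 ± 19.5 FPKM against 17.9 ± 4.15 FPKM (adjusted p = 0.00247, and 0.0580 after subtraction).

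Genes of elastic fibres and matricellular proteins were higher in fibroblasts for 17 of 36 tested members and in papilla for 5, and the median log2 difference was -0.91. After subtraction the counts were 20 and 2, a direction that the rescaling sets for genes lower in melanocytes than in fibroblasts. Sparc, a collagen-binding glycoprotein, had the highest level of all fibroblast-higher genes, at 7817 and 9367 FPKM against 1181 and 1063 FPKM in papilla (7.63-fold, adjusted p = 8.52e-05). It was listed at 0 in both sheath libraries, where the 0 may be a failed estimate. Thbs2, thrombospondin 2, was at 312 and 428 FPKM against 12.1 and 13.5 FPKM (26.6-fold, adjusted p = 3.46e-05). Fn1, fibronectin, was at 542 and 580.5 FPKM against 40.0 and 30.4 FPKM (15.7-fold, adjusted p = 3.78e-05). Eln, elastin, and Mfap4, a microfibril protein, were at 460.0 ± 123 FPKM and 2853 ± 534 FPKM in fibroblasts and at 50.1 ± 22.2 FPKM and 307 ± 111 FPKM in papilla (adjusted p = 0.000522 and 0.000232). Lox, the enzyme that crosslinks both collagen and elastin, was at 89.2 and 109.6 FPKM against 6.81 and 5.45 FPKM (14.1-fold, adjusted p = 7.32e-05). In papilla, Spon1, F-spondin, was at 139.6 and 138 FPKM against 15.9 and 19.3 FPKM (7.56-fold, adjusted p = 0.000166). None of the 17 fibroblast-higher members was shared with melanocytes.

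Matrix proteases and their inhibitors leaned the same way, 11 of 30 higher in fibroblasts and 4 in papilla, with a median log2 difference of -0.75. Adam12, a membrane protease, was at 49.9 and 66.7 FPKM in fibroblasts and 3.32 and 1.67 FPKM in papilla (17.3-fold higher in fibroblasts, adjusted p = 0.000143). Adamts17 was at 50.3 and 49.4 FPKM against 2.22 and 2.63 FPKM (14.9-fold, adjusted p = 7.55e-05) and Adamts8 at 11.6 and 11.4 FPKM against 0.203 and 0.0732 FPKM (11.0-fold, adjusted p = 9.59e-05). Adamts9, which cuts versican, was instead at 33.7 and 44.1 FPKM in papilla and 2.47 and 2.55 FPKM in fibroblasts (11.3-fold, adjusted p = 0.000178). Timp3, a matrix-bound protease inhibitor, was at 102 ± 18.7 FPKM in papilla and 25.3 ± 4.27 FPKM in fibroblasts (3.90-fold, adjusted p = 0.00243). After subtraction 13 were higher in fibroblasts and 5 in papilla.

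Basement membrane genes were higher in papilla for 8 of 22 tested members and in fibroblasts for 2, though the median log2 difference was 0.03. Lamc3, a laminin chain, was at 97.3 and 62.0 FPKM in papilla and 0.803 and 1.20 FPKM in fibroblasts (39.6-fold, adjusted p = 3.80e-05). Frem1, a protein of the skin basement membrane, was at 119.6 and 139.6 FPKM against 8.90 and 13.3 FPKM (11.0-fold, adjusted p = 0.000140). Lama2 and Nid1, a laminin chain and nidogen 1, were at 194 ± 16.1 FPKM and 261 ± 31.0 FPKM in papilla and at 35.7 ± 7.08 FPKM and 54.5 ± 2.13 FPKM in fibroblasts (adjusted p = 0.000392 and 0.000316). Type IV collagen chains were on both sides, and Col4a5 and Col4a6 had log2 differences of -2.27 and -2.78. Their more widespread relatives Col4a1 and Col4a2 were called higher in papilla (adjusted p = 0.0173 and 0.0166), but not without papilla replicate 1 (adjusted p = 0.104 and 0.0975), without fibroblast replicate 2 (adjusted p = 0.104 and 0.0919) or after subtraction (adjusted p = 0.260 and 0.208). Hspg2, perlecan, was at 152 ± 49.2 FPKM in fibroblasts and 46.0 ± 16.9 FPKM in papilla (adjusted p = 0.0138, and 0.0821 and 0.0848 without papilla replicate 2 and fibroblast replicate 1).

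**Figure D4:**
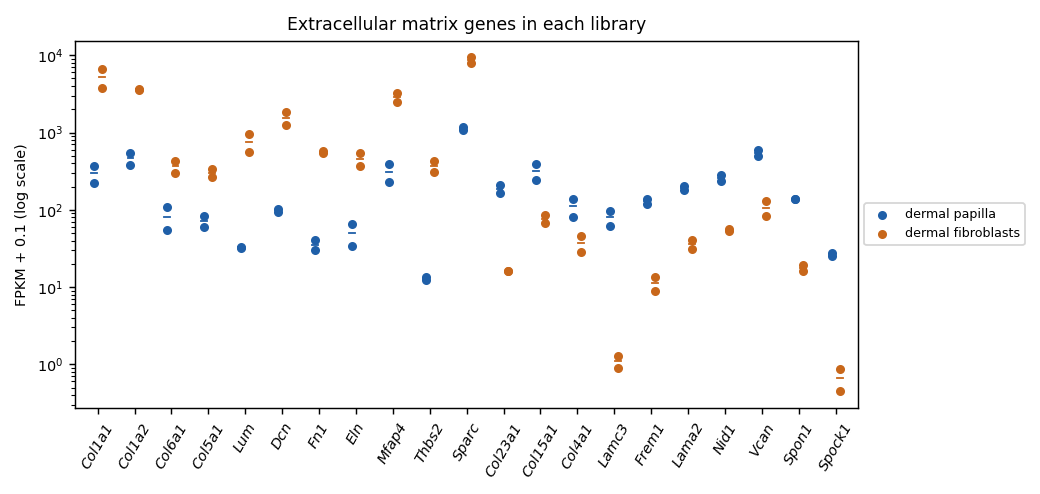
Level of 21 extracellular matrix genes in each papilla and fibroblast library, on a log axis of FPKM + 0.1. Points are single libraries and short lines are means of 2. The first 11 genes, from Col1a1 to Sparc, are higher in both fibroblast libraries, and the last 10, from Col23a1 to Spock1, are higher in both papilla libraries.

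Axon guidance genes, many of which also act between skin cells, were higher in papilla for 12 of 53 tested members and in fibroblasts for 9, against 8.31% and 7.43% of all tested genes, and 32 were not called. Dcc, a netrin receptor, was at 37.5 and 59.97 FPKM in papilla and 0.439 and 0.456 FPKM in fibroblasts (33.5-fold, adjusted p = 0.000107), and its ligand Ntn1, netrin 1, was at 68.8 and 52.0 FPKM in fibroblasts and 5.45 and 4.10 FPKM in papilla (10.6-fold higher in fibroblasts, adjusted p = 0.000132). The ephrin receptors Epha4 and Epha7 had log2 differences of 3.43 and 3.05, both called higher in papilla. Of the secreted semaphorins, Sema3a and Sema3b were called higher in fibroblasts, with log2 differences of -3.02 and -2.62, and Sema3f was not called (log2 -0.11). Nrp1, their co-receptor, was at 20.0 and 27.0 FPKM in fibroblasts and 1.46 and 2.67 FPKM in papilla (8.06-fold, adjusted p = 0.000828), with a melanocyte part of 35.7%.

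Receptors were among the papilla-higher neurotrophic genes. Gfra1, a receptor for GDNF, was at 69.2 and 61.9 FPKM in papilla and 3.40 and 3.49 FPKM in fibroblasts (14.9-fold, adjusted p = 7.29e-05). Ntrk2, the receptor for BDNF, was at 11.7 and 14.6 FPKM against 1.99 and 1.45 FPKM (5.20-fold, adjusted p = 0.000918), and the sheath was far higher at 246 FPKM. In all 4 of 12 tested members were higher in papilla and 2 in fibroblasts.

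Adhesion genes divided evenly, 10 of 36 higher in papilla and 11 in fibroblasts, 5 of these 11 shared with melanocytes, and 10 of 34 and 7 after subtraction. Cntn1, contactin 1, was at 25.6 and 33.9 FPKM in papilla and 0.787 and 1.16 FPKM in fibroblasts (15.5-fold, adjusted p = 0.000401), and the integrin chains Itga8 and Itga1 were 7.86-fold and 6.00-fold higher in papilla (adjusted p = 0.00142 and 0.00340). Cdh4, a classical cadherin, was at 21.2 and 23.9 FPKM in fibroblasts and 0.710 and 0.457 FPKM in papilla (14.9-fold higher in fibroblasts, adjusted p = 8.91e-05) and at 1.31 FPKM in melanocytes. Cdh3 and Cdh1, P-cadherin and E-cadherin, were also called higher in fibroblasts, but melanocytes held more of both, 157 FPKM and 103 FPKM, and their log2 differences turned to 1.91 and 2.80 after subtraction.

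Chemokines and complement genes were called on both sides, 6 of 23 in papilla and 7 in fibroblasts. Cx3cl1, fractalkine, was at 14.6 ± 4.85 FPKM in papilla and 0.475 ± 0.388 FPKM in fibroblasts (10.5-fold, adjusted p = 0.000473), and Cxcl14 was at 49.8 and 42.9 FPKM against 10.3 and 7.51 FPKM (4.82-fold, adjusted p = 0.000687). Ccl11 and Ccl7, which attract eosinophils and monocytes, were the leading unshared members in fibroblasts, Ccl7 at 28.4 and 41.0 FPKM against 0.647 and 4.02 FPKM (12.2-fold, adjusted p = 0.00195). Cxcl12, made by many stromal cells, was at 12.2 ± 0.442 FPKM in papilla and 16.5 ± 2.14 FPKM in fibroblasts and was not called (log2 -0.40 ± 0.24, adjusted p = 0.354, and 0.0394 after subtraction).

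Hox genes, which record position along the body, were higher in papilla for 13 of 26 tested members and in fibroblasts for 2, with a median log2 difference of 1.07. Hoxa10 was at 12.4 and 15.2 FPKM in papilla and 1.21 and 1.99 FPKM in fibroblasts (5.74-fold, adjusted p = 0.00253), Hoxa3 at 6.72 and 7.63 FPKM against 0.461 and 0.522 FPKM (5.47-fold, adjusted p = 0.00146) and Hoxc10 at 34.6 and 24.7 FPKM against 6.97 and 4.81 FPKM (4.44-fold, adjusted p = 0.00228). With melanocyte RNA subtracted and rescaled only 3 members were called higher in papilla and the median was 0.43, close to the median of 0.32 that all genes then had. None of the 26 was shared with melanocytes, so the rescaling itself moves them towards fibroblasts. Hoxc13, a factor of the hair shaft, was one of the 2 higher in fibroblasts, at 21.9 ± 2.27 FPKM against 7.19 ± 0.311 FPKM (adjusted p = 0.00612, and 0.0501 and 0.0577 without papilla replicate 2 and fibroblast replicate 1), and Hoxb9 was the other (log2 -1.37, adjusted p = 0.0108, and 0.0702 and 0.0557 without papilla replicate 1 and fibroblast replicate 1).

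Contractile genes were higher in papilla for 8 of 14 tested members and in fibroblasts for 2, and for 3 and 2 after subtraction. None of the 14 was shared with melanocytes, so the loss of papilla calls follows the direction that the rescaling sets. Acta2, smooth muscle actin, was at 30.2 and 49.7 FPKM in papilla and 5.95 and 7.78 FPKM in fibroblasts (5.08-fold, adjusted p = 0.00306), and Tpm1, a tropomyosin, was at 450.2 and 404 FPKM against 96.7 and 117 FPKM (3.98-fold, adjusted p = 0.000616). Sheath levels were far above papilla, at 1069.7 FPKM for Acta2 and 1851 FPKM for Tpm1. Mylk, myosin light chain kinase, was at 25.9 ± 3.31 FPKM in fibroblasts and 8.76 ± 0.788 FPKM in papilla (2.76-fold higher in fibroblasts, adjusted p = 0.00441).

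No cell cycle gene was called by limma, and 1 of 26 had an unadjusted p under 0.05, towards papilla. Over the 26 tested members the log2 differences ran from -0.61 to 0.66, with Mki67, the proliferation antigen, at 22.5 ± 0.683 FPKM in papilla and 28.9 ± 3.97 FPKM in fibroblasts (log2 -0.34 ± 0.24, 95% interval -0.90 to 0.22). Quantile normalization also called none, and 1 was called higher in papilla after subtraction. Of the 26 cell cycle genes, 20 were shared with melanocytes, beside 51.6% of all tested genes. Their median log2 difference was -0.17, and 0.72 after subtraction, when that of all genes was 0.32. Immediate early genes, which respond within minutes to stimulation or to cell isolation, were higher in papilla for 5 of 22 and in fibroblasts for 2, and for 1 of 21 and none after subtraction. Fosb was at 476 and 366 FPKM in papilla and 135 and 73.4 FPKM in fibroblasts (4.16-fold, adjusted p = 0.00281, and 0.0604 after subtraction), and Fos at 607 and 511 FPKM against 229 and 192 FPKM (2.65-fold, adjusted p = 0.00334). Glycolysis genes had a median log2 difference of -0.65, with 3 of 18 higher in fibroblasts and 1 in papilla. All 3 of the fibroblast-higher ones, Pgk1 among them at 162 ± 20.7 FPKM against 66.0 ± 0.561 FPKM, were shared with melanocytes. The glycolysis median was -0.09 after subtraction, still under the 0.32 that all genes then had.

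**Figure D5:**
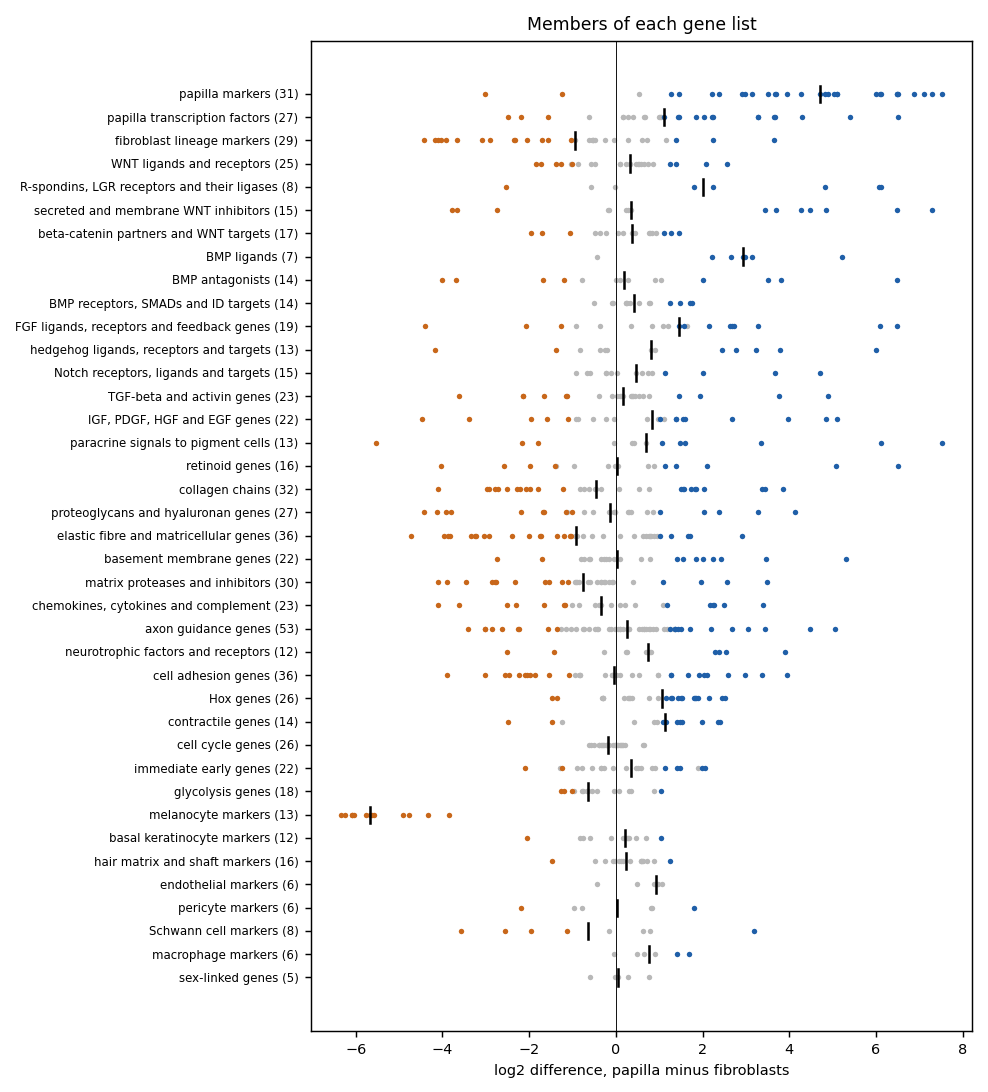
Log2 difference, papilla minus fibroblasts, of each tested member of the gene lists with at least 5 tested members. Blue points are called higher in papilla, orange points higher in fibroblasts and grey points not called, black ticks are medians, and genes with a listed 0 in both replicates of either population are not drawn. Papilla markers lie furthest right and melanocyte markers furthest left.

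The sheath is the mesenchyme that wraps the follicle and adjoins the papilla. Its mean lay between those of the 2 populations for 34.2% of all tested genes. For 670 of the 1070 papilla-higher genes the sheath mean lay between the papilla and fibroblast means, for 263 at or below fibroblasts and for 137 at or above papilla. Among the 956 fibroblast-higher genes the sheath lay between the populations for 455, at or below papilla for 317 and at or above fibroblasts for 184. Of the 317, 191 were shared with melanocytes, whose markers were low in sheath. For the 542 genes lower in melanocytes the counts were 263, 126 and 153. The difference between these shares was not tested. Called genes have a wide gap between the populations by choice. Some of the larger share of sheath means in between follows from that. The hair matrix, which touches the papilla, had a mean at or above that of papilla for 73 of the 1070 papilla-higher genes (6.82%), against 45.7% of all tested genes. Some such share follows from choosing genes that are high in papilla.

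Markers of cell types other than melanocytes were examined in the same way. Their called counts stand beside 8.31% of all tested genes called higher in papilla and 7.43% in fibroblasts. The 12 basal keratinocyte markers summed to 267 to 431 FPKM in the 4 libraries, against 5983 and 6094 FPKM in outer root sheath, and 1 of them was called in each direction. Markers of hair matrix and shaft summed to 169 to 348 FPKM, against 2703 and 2843 FPKM in the matrix libraries, with 1 of 16 called in each direction, Msx2 and Hoxc13. Endothelial markers summed to 7.58 to 23.5 FPKM with none of 6 called (3 towards papilla by unadjusted limma p), and macrophage markers to 11.0 to 24.4 FPKM, with 2 of 6 higher in papilla. Schwann cell markers summed to 51.9 to 57.1 FPKM, with 4 of 8 higher in fibroblasts, 3 of them shared with melanocytes, and S100b higher in papilla at 44.6 ± 4.21 FPKM against 3.99 ± 0.0240 FPKM. Among the adipocyte markers only Cebpa was called, a factor that other cells also use, at 240.3 and 144 FPKM in papilla and 12.6 and 7.41 FPKM in fibroblasts (17.5-fold, adjusted p = 0.000173), and the defining marker Adipoq was at 0 FPKM in papilla and 0.0737 FPKM in fibroblasts. The adipocyte markers summed to 309 and 208 FPKM in papilla and 72.1 and 68.7 FPKM in fibroblasts. Cebpa alone made up most of the papilla sums and little of the fibroblast sums. Pericyte markers summed to 33.5 to 46.7 FPKM with 1 of 6 called in each direction, and mast cell and lymphocyte markers to 5.98 to 23.8 FPKM with none of 4 called (0 by unadjusted p). Whether cells of these types contributed to any result above was not tested.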

How the data were processed

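RNA of sorted cells was amplified from 6 ng and sequenced from 100 ng of amplified cDNA, per the labels' protocols, after selection for RNA integrity numbers of 8 or more. The authors deposited FPKM per gene for 12 libraries. TopHat2 2.0.3, Bowtie2, Cufflinks 2.1.1 and mm10 are named in the submitters' processing notes, without roles. FPKM depend on library composition, amplification can skew levels, and steps of whole reads could not be recovered from low values, so no count model was used.

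The deposited FPKM were filtered (1 FPKM or more in 2 or more of the 4 libraries) and tested as log2(FPKM + 1) with limma 3.58.1 (R 4.3.3, trended prior) in 1 fit over the 6 papilla, fibroblast and sheath libraries, which share an estimate of the spread with 3 residual degrees of freedom. P-values were adjusted over all 12873 tested genes. The fitting code was tested on simulated data.

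Described genes were drawn from several sets. Per direction, these were the 10 of largest difference and the 10 of highest level. They came from called, non-overlapping genes with at least 5 FPKM in the higher population. Up to 4 called members per direction of each list were a further source. Some genes of these sets, such as Bgn and Cox6c among the highest levels in fibroblasts, are not described. The fibroblast direction used genes lower in melanocytes, with 5 more among those at least as high. Genes listed at 0 in a population with at least 50 FPKM in the other, a fixed set of markers, and uncalled or other members given with values alone were added. The members and lists were chosen with earlier results of these data known. Coordinates are from GENCODE M21. Subtraction took the melanocyte mean times each library's median marker ratio from each dermal library, set values under 0 to 0, then rescaled the rest. Alternatives were other pseudocounts, filters, library sets, normalizations, a replicate block, and each library left out.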

Additional observations from a re-analysis of the deposited data

How the results depend on the processing

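Counts are given for genes higher in papilla, higher in fibroblasts, and higher in fibroblasts with a lower level in melanocytes, which were 1070, 956 and 542 as reported. A pseudocount of 5 FPKM gave 569, 552 and 312. Leaving out genes shared with melanocytes gave 746, 563 and 563. Subtracting melanocyte RNA without rescaling gave 3087, 428 and 405, and the subtraction with rescaling, chosen after seeing the data, gave 1224, 777 and 736. Leaving out each of the 4 libraries in turn gave 710 to 746, 658 to 694 and 370 to 394 genes, with 710 papilla-higher genes without fibroblast replicate 2. The counts stayed within 1.5 times of those reported with no filter on low values, with the 4 libraries alone, with all 12 in 1 fit, with quantile normalization and with genes listed at 0 left out. No label ties the replicate numbers to animals or batches. With the replicate number as a block the counts were 1235, 1085 and 615, and all 1070 and 956 called genes were called again. Deviations of same-numbered libraries correlated across genes at 0.577 between papilla and fibroblasts. The block with the 4 libraries alone, added after seeing the data, gave 1242, 1097 and 620. Under subtraction without and with rescaling, the log2 difference turned positive for Cdh1 (2.79 and 2.80), Cdh3 (2.18 and 1.91), Etv5 (4.69 and 4.70) and Tfap2a (3.67 and 3.68). The construction of the setting sets this, since the part taken away is most or all of their fibroblast level and values under 0 were set to 0. In each fit without 1 library, the lone library of a population was assumed to vary like the others. The depth behind each FPKM value is unknown, so differences of genes near 1 FPKM cannot be weighed by their reads.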

Other observations

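Sex-linked genes were not called in either direction, 0 of 5 tested by limma (1 by unadjusted p), and the libraries of a population differed among themselves. The Y-linked gene Ddx3y was at 3.34 and 12.04 FPKM in papilla and 3.41 and 10.9 FPKM in fibroblasts, with replicate 2 the higher library in both. Xist, expressed from the inactive X chromosome, was at 91.6 and 117 FPKM in papilla and 53.6 and 68.8 FPKM in fibroblasts, and it was called higher in papilla only with melanocyte RNA subtracted, rescaled or not (rescaled adjusted p = 0.00127, against 0.0787). All 5 sex-linked genes were at 1 FPKM or more in each of the 4 libraries. In melanocytes, hair matrix and outer root sheath, all 5 reached 1 FPKM in replicate 1 but 1 of 5 did in replicate 2, where 3, 4 and 4 of the genes were listed at 0, so replicates of these 3 populations differed in the sex-linked genes they expressed.

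Further called genes stood out by their level. Zfp36, an mRNA decay factor of the immediate early class, was at 1193 and 804 FPKM in papilla and 418 and 292 FPKM in fibroblasts (adjusted p = 0.00740, and 0.0626 without fibroblast replicate 2 and 0.143 after subtraction of melanocyte RNA). Ppic, a cyclophilin of the secretory pathway, was at 658 and 961 FPKM in fibroblasts and 182 and 192 FPKM in papilla (4.24-fold higher in fibroblasts, adjusted p = 0.00108). Crip1, a small LIM protein, was at 849 and 744 FPKM in fibroblasts and 209 and 169 FPKM in papilla (4.22-fold higher in fibroblasts, adjusted p = 0.000438), with a melanocyte part of 0.497%. For these genes the libraries of the 2 populations did not overlap.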
